A study of Homo sapiens with 4 samples.

Results

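The genes of cholesterol and fatty acid synthesis were measured by RNA-seq in RPMI 8226 cells. This human line is an established model of multiple myeloma, a cancer of plasma cells. The members were 33 genes named by symbol and matched to rows of the count table through their Ensembl IDs, out of 78932 gene rows: 5 regulators, 18 enzymes of sterol synthesis, 8 enzymes of fatty acid synthesis, the sterol carrier STARD4 and the oxysterol enzyme CH25H. All 33 had a row, and 32 passed the filter on low counts, the exception being CH25H. The cells had been transfected 72 h earlier with a locked nucleic acid (LNA) antisense oligonucleotide, a short modified DNA strand that lowers the RNA it pairs with. In 2 libraries it was the LINC01432 LNA named ASO3, at 50 nM, directed at the long noncoding RNA LINC01432, and in 2 libraries it was the control LNA named ASO1, whose dose is not stated separately. Both groups were thus transfected, each with a single oligonucleotide, and no label tells whether the 2 libraries of a treatment were grown apart. The p-values therefore reflect only how far these libraries differ, which may be technical.

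Cholesterol is built from acetyl-CoA through mevalonate, farnesyl diphosphate, squalene and lanosterol, and fatty acids are built from the same acetyl-CoA through malonyl-CoA. Both routes are driven by the SREBP transcription factors, which are made as membrane proteins of the endoplasmic reticulum. SCAP carries them to the Golgi for cleavage when sterols are low, and INSIG proteins hold them back when sterols are high. SREBF2 mainly drives sterol enzymes and SREBF1 mainly drives fatty acid enzymes; SREBF1 is also a target of the LXR receptors, which sense oxysterols. Plasma cells use these lipids for the membranes of their large secretory apparatus.

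The libraries held 20873393 and 26185342 gene counts with LINC01432 LNA and 29161298 and 24493148 with control LNA. LINC01432 had 9.0 and 9.90 CPM (counts scaled to a common effective library size) in the LINC01432 LNA libraries and 20.5 and 17.9 CPM in the control LNA libraries, a log2 fold change of -1.02 (SE 0.11, adjusted p = 0.000228 by edgeR's quasi-likelihood test with Benjamini-Hochberg adjustment). All 8 plasma cell markers were detected in every library, from 16.5 CPM for SLAMF7 to 806 CPM for IRF4. Their sums were 2238 and 2452 CPM with LINC01432 LNA and 2483 and 2571 CPM with control LNA. CD38 rose, and TNFRSF17 and XBP1 fell, also after GC correction (log2 fold changes 0.83, -0.41 and -0.31). SDC1 was called lower only after GC correction (-0.30, edgeR adjusted p = 0.0349), against -0.14 without it. Summed markers of other cells reached at most 0.594 CPM for T cells, 0.158 CPM for hepatocytes and 4.87 CPM for myeloid cells, with the myeloid gene LYZ at 0 in every library. The fibroblast markers summed to 3.78 and 4.6 CPM with LINC01432 LNA and 2.34 and 2.73 CPM with control LNA, where COL1A1 rose (log2 fold change 0.86, edgeR adjusted p = 0.0272) but was not called after GC correction (0.66, edgeR adjusted p = 0.0809), and the epithelial markers to 54.4 and 52.5 CPM with LINC01432 LNA and 62.8 and 64.2 CPM with control LNA, mostly EPCAM. Their part in the results was not tested. Across all 18680 genes tested, 7.5% were called higher and 4.37% lower with LINC01432 LNA (adjusted p under 0.05), and the fold changes tracked the GC content of the transcripts. Tested genes without a known GC content were in no bin below and got no GC correction. With the others split into 10 equal bins by GC, genes of the top bin had a median of 0.40 on the log2 scale, and those of the bottom bin -0.13. An offset that removes this trend per library is therefore given as the GC-corrected value beside the called genes described below.

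Of the 32 members tested, 4 rose with LINC01432 LNA (SREBF1, CYP51A1, FASN and MVD), 2 fell (LSS and MSMO1) and 26 did not pass. Beside these counts, 7.5% of all genes rose and 4.37% fell (11.9% in either direction). The groups did not overlap for 10 members higher with LINC01432 LNA and 10 lower, where 28.2% and 25.9% of all genes did the same. The median log2 fold change of the members was -0.01, against 0.01 for all genes tested. After GC correction 2 members rose (SREBF1 and CYP51A1) and 1 fell (LSS), where 5.35% of all genes rose and 4.33% fell. With 1 library left out at a time, the number of members called moved, and 0 of the 6 called members changed sign. Each of those fits takes the spread of the shortened group from the other pair, and the control LNA pair varied less (3.79 times the variance that counting alone gives, against 12.2 times for the LINC01432 LNA pair).

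**Figure D1:**
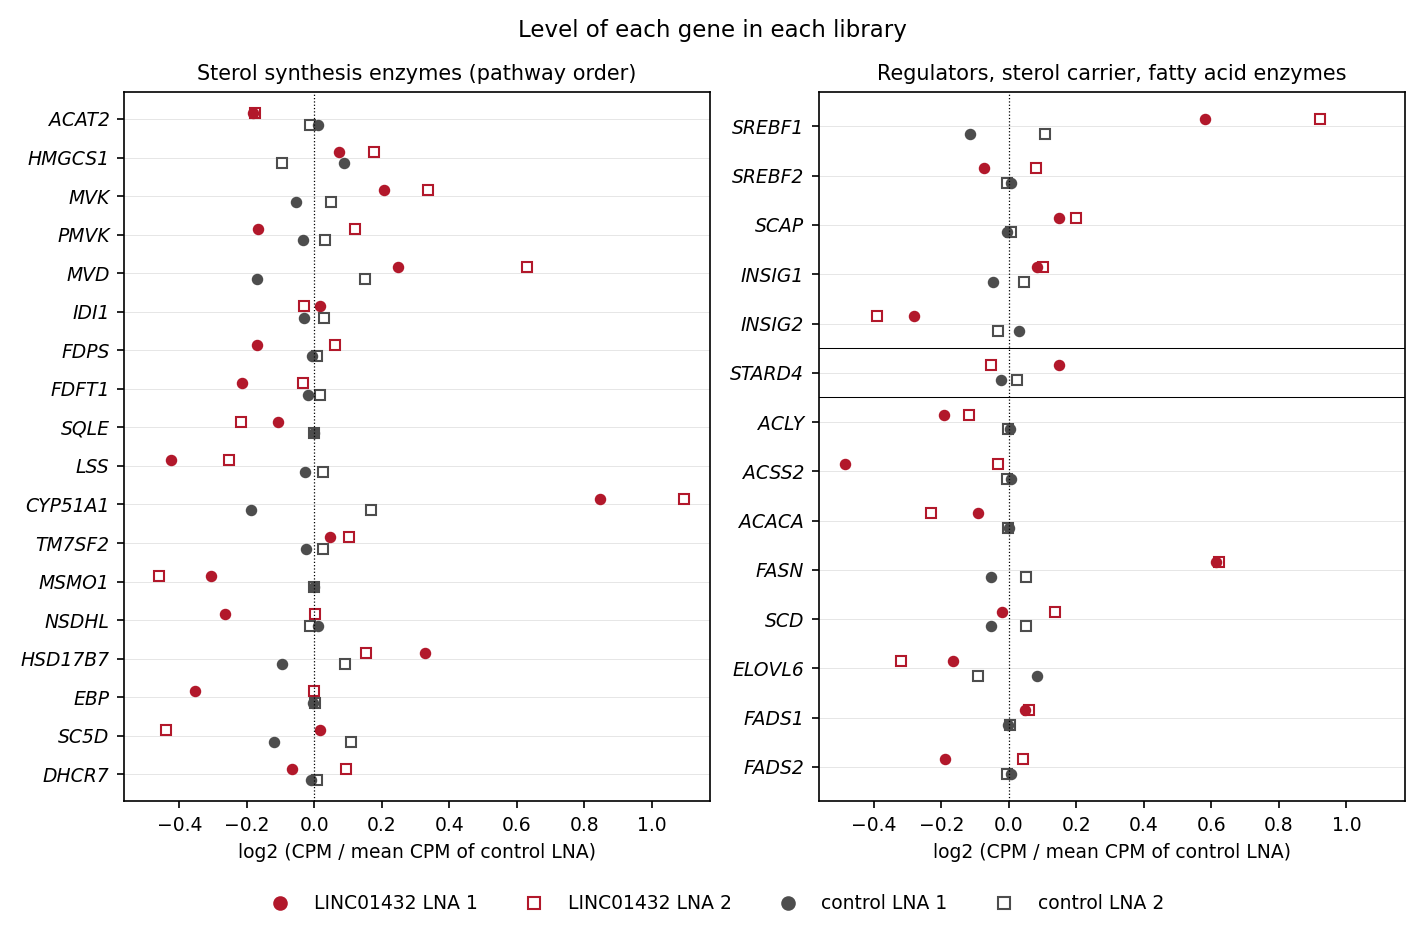
Level of each tested gene in each library, as log2 of its CPM over the mean CPM of the control LNA libraries. Red marks are LINC01432 LNA libraries and grey marks control LNA libraries. SREBF1, FASN and CYP51A1 lie to the right of the control LNA libraries by the widest margins; LSS, MSMO1 and INSIG2 lie to the left.

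Among the regulators, SREBF1 rose and the other 4 did not pass, where 7.5% of all genes rose. SREBF1 (ENSG00000072310, chromosome 17 from 17810399 to 17837002 on the minus strand in GRCh38), which encodes SREBP1, had 681 and 863 CPM in the LINC01432 LNA libraries and 420 and 491 CPM in the control LNA libraries. Both LINC01432 LNA libraries were above both control LNA libraries. The mean was 772 ± 129 CPM with LINC01432 LNA and 455 ± 49.9 CPM with control LNA (SD, n = 2 each), a log2 fold change of 0.76 (SE 0.12, edgeR adjusted p = 0.00183) and 0.41 after GC correction (edgeR adjusted p = 0.0156). Its transcripts are 63.5% GC. It stayed called in all 14 alternatives, with log2 fold changes from 0.41 to 0.91. In bulk RNA, a change in all cells and a larger change in some of them cannot be told apart.

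SREBF2, which encodes the factor of the sterol enzymes, had 524 and 584 CPM with LINC01432 LNA and 554 and 550 CPM with control LNA. The control LNA values lay between those of the LINC01432 LNA libraries, and the log2 fold change was 0.01 (SE 0.09, edgeR adjusted p = 0.976). SCAP, the escort of both SREBPs, had 237 and 245 CPM with LINC01432 LNA and 213 and 214 CPM with control LNA; the groups did not overlap, which held for 54.1% of all genes, and the test did not pass (log2 fold change 0.17, edgeR adjusted p = 0.180). INSIG1, the retention protein that is itself an SREBP target, had 154 and 155 CPM with LINC01432 LNA and 140 and 149 CPM with control LNA (log2 fold change 0.09, adjusted p = 0.512). INSIG2, its relative that does not depend on SREBP in the same way, was rarer, at 5.17 and 4.79 CPM with LINC01432 LNA and 6.42 and 6.15 CPM with control LNA (log2 fold change -0.34, SE 0.15, adjusted p = 0.167).

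Of 18 sterol enzymes tested, 2 rose (CYP51A1 and MVD), 2 fell (LSS and MSMO1) and 14 did not pass. Of all genes, 7.5% rose and 4.37% fell, so these small counts are not read as a result about the arm. The log2 fold changes of the 18 enzymes ran from -0.38 to 0.99 around a median of -0.03. In the mevalonate steps, ACAT2, which joins acetyl-CoA units, had 79.3 and 79.7 CPM with LINC01432 LNA and 90.7 and 89.3 CPM with control LNA (log2 fold change -0.18, adjusted p = 0.164), although 52.3% of its exonic bases overlap an opposite-strand gene. HMGCS1, the HMG-CoA synthase, had 48.8 and 52.4 CPM with LINC01432 LNA and 49.4 and 43.4 CPM with control LNA, so the groups overlapped (log2 fold change 0.13, adjusted p = 0.436). The kinase genes MVK and PMVK had log2 fold changes of 0.28 (SE 0.09, adjusted p = 0.0661) and -0.01 (SE 0.10, adjusted p = 0.952).

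MVD, which decarboxylates mevalonate diphosphate (ENSG00000167508, chromosome 16 from 88651935 to 88663161, minus strand), had 45.9 and 59.8 CPM with LINC01432 LNA and 34.4 and 42.9 CPM with control LNA. The lower LINC01432 LNA library exceeded the higher control LNA library by a few CPM. It rose by a log2 fold change of 0.46 (SE 0.13, edgeR adjusted p = 0.0449), close to the threshold. With transcripts of 64.1% GC, it had a GC-corrected log2 fold change of 0.07 (edgeR adjusted p = 0.739). The call was also lost with other scaling (edgeR adjusted p = 0.0581 with the median of ratios and 0.0580 with library totals) and without control LNA library 1 (log2 fold change 0.28), and the value without LINC01432 LNA library 2 was 0.23.

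The genes from the isoprenoid steps to squalene did not pass. IDI1, the isomerase of isopentenyl diphosphate, had 31.3 and 30.3 CPM with LINC01432 LNA and 30.3 and 31.6 CPM with control LNA (log2 fold change -0.01, SE 0.08). FDPS, which makes farnesyl diphosphate, had 200 and 235 CPM with LINC01432 LNA and 224 and 226 CPM with control LNA (-0.05, SE 0.09). FDFT1, the squalene synthase, and SQLE, the squalene epoxidase that can limit flux, had log2 fold changes of -0.12 (SE 0.09, edgeR adjusted p = 0.435) and -0.16 (SE 0.08, adjusted p = 0.227). SQLE had 100 and 93.0 CPM with LINC01432 LNA, below the 108 CPM of each control LNA library.

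LSS, the cyclase that folds oxidosqualene into lanosterol (ENSG00000160285, chromosome 21 from 46188141 to 46228824, minus strand), fell. It had 76.9 and 86.6 CPM in the LINC01432 LNA libraries and 101 and 105 CPM in the control LNA libraries, with no overlap. Its log2 fold change was -0.33 (SE 0.08, edgeR adjusted p = 0.0258) and -0.43 after GC correction (edgeR adjusted p = 0.00239), so the correction moved it away from 0. The call was lost without control LNA library 1 (-0.38, edgeR adjusted p = 0.230) and without control LNA library 2 (-0.32, edgeR adjusted p = 0.359).

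CYP51A1, the lanosterol demethylase that performs the next step (ENSG00000001630, chromosome 7 from 92112151 to 92134803, minus strand), moved the other way and had the largest fold change of the 32 tested members. It had 18.04 and 21.4 CPM with LINC01432 LNA and 8.79 and 11.2 CPM with control LNA, from 387 and 540 counts with LINC01432 LNA and 256 and 276 counts with control LNA. The mean was 19.7 ± 2.37 CPM with LINC01432 LNA and 10.02 ± 1.74 CPM with control LNA (SD, n = 2 each), 1.98-fold higher (log2 fold change 0.99, SE 0.13, edgeR adjusted p = 0.00081; 1.14 after GC correction, edgeR adjusted p = 0.000777). It stayed called in all 14 alternatives, from 0.79 to 1.16. Its counts cannot be assigned with certainty: 83.2% of its exonic bases overlap another gene in GENCODE 29, mostly a same-strand gene (AC000120.2) whose row is at 0 in every library, and its 3 pseudogene rows together held 273 and 333 counts with LINC01432 LNA and 281 and 287 with control LNA. Per kilobase of exon it had 5.50 CPM with LINC01432 LNA and 2.80 CPM with control LNA, below the enzymes on either side of it, LSS (11.3 with LINC01432 LNA and 14.2 with control LNA) and TM7SF2 (11.3 with LINC01432 LNA and 10.7 with control LNA). Other genes overlap 7.88% of the exonic bases of LSS and 0.47% of those of TM7SF2, so these levels are not like for like. The part of shared sequence in the value of CYP51A1 was not tested.

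Of the later sterol steps, only MSMO1 was called. MSMO1, the sterol methyl oxidase (ENSG00000052802, chromosome 4 from 165327623 to 165343160, plus strand), had 19.5 and 17.6 CPM with LINC01432 LNA and 24.1 and 24.2 CPM with control LNA. Its log2 fold change was -0.38 (SE 0.09, edgeR adjusted p = 0.0218), and -0.21 after GC correction, where the call was lost (edgeR adjusted p = 0.113); its transcripts are 38.6% GC. It was not called without control LNA library 1 (-0.40) or control LNA library 2 (-0.39) either, nor with library totals as scaling (edgeR adjusted p = 0.0506).

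Its partners in removing the methyl groups did not pass. NSDHL, the dehydrogenase, had 57.6 and 69.2 CPM with LINC01432 LNA and 69.7 and 68.5 CPM with control LNA (log2 fold change -0.12, SE 0.09), and HSD17B7, the reductase, had 4.52 and 4.0 CPM with LINC01432 LNA and 3.37 and 3.83 CPM with control LNA (0.24, SE 0.18). TM7SF2, a sterol reductase, had 37.7 and 39.2 CPM with LINC01432 LNA and 35.9 and 37.1 CPM with control LNA, a log2 fold change of 0.08 that was -0.23 after GC correction (edgeR adjusted p = 0.624 and 0.0605). EBP, the sterol isomerase, had 96.6 and 123 CPM with LINC01432 LNA, against 123 and 124 CPM with control LNA, so only LINC01432 LNA library 1 was low (-0.16, SE 0.11). SC5D, a sterol desaturase, had 9.51 and 6.93 CPM with LINC01432 LNA and 8.65 and 10.1 CPM with control LNA (-0.20, SE 0.16). DHCR7, which makes cholesterol itself in the last step, had 418 and 467 CPM with LINC01432 LNA and 435 and 441 CPM with control LNA (0.02, SE 0.09), and per kilobase of exon it was the most abundant sterol enzyme here, at 106 CPM with LINC01432 LNA and 105 CPM with control LNA.

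CH25H, the interferon-inducible enzyme whose oxysterol product blocks SREBP processing, was hardly detected. It had 0 and 1 counts in the LINC01432 LNA libraries and 0 counts in each control LNA library. A count of 3, taken as the floor, is worth 0.103 to 0.140 CPM here, so its level lay at or under that floor in every library and no fold is given; floors and intervals cover counting error only. STARD4, which carries sterol between membranes, had 7.5 and 6.54 CPM with LINC01432 LNA and 6.66 and 6.89 CPM with control LNA (log2 fold change 0.05, SE 0.14, edgeR adjusted p = 0.874).

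In fatty acid synthesis, FASN rose and the other 7 enzymes did not pass, where 7.5% of all genes rose. FASN (ENSG00000169710, chromosome 17 from 82078333 to 82098332, minus strand), the synthase that builds palmitate, had 3061 and 3077 CPM in the LINC01432 LNA libraries and 1929 and 2069 CPM in the control LNA libraries. Both LINC01432 LNA libraries lay above both control LNA libraries, with means of 3069 ± 11.2 CPM with LINC01432 LNA and 1999 ± 98.8 CPM with control LNA (SD, n = 2 each). FASN alone took 0.315% and 0.297% of the counts of the LINC01432 LNA libraries and 0.193% and 0.207% of those of the control LNA libraries. The log2 fold change was 0.62 (SE 0.09, edgeR adjusted p = 0.00123), and 0.16 after GC correction, where the call was lost (edgeR adjusted p = 0.228); at 65.3% its transcripts have the highest GC content of the members. It was also not called without control LNA library 1 (0.55, edgeR adjusted p = 0.163).

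The suppliers of acetyl-CoA and its carboxylase had lower values with LINC01432 LNA that did not pass the test. ACLY, which cleaves citrate, had 832 and 875 CPM with LINC01432 LNA and 951 and 948 CPM with control LNA (log2 fold change -0.15, SE 0.08, edgeR adjusted p = 0.277). ACSS2, which activates acetate, had 20.3 and 27.8 CPM with LINC01432 LNA and 28.5 and 28.3 CPM with control LNA (-0.24, SE 0.13, edgeR adjusted p = 0.275). Its log2 fold change was -0.50 without LINC01432 LNA library 2 and -0.05 without LINC01432 LNA library 1. ACACA, the carboxylase that commits acetyl-CoA to fatty acids, had 187 and 170 CPM with LINC01432 LNA and 199 CPM in each control LNA library (-0.16, SE 0.08, edgeR adjusted p = 0.255). None of the 3 groups of values overlapped between the treatments, where 25.9% of all genes lay lower without overlap, and none of the 3 genes passed.

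The enzymes that modify fatty acids did not pass either. SCD, the stearoyl-CoA desaturase, had 657 and 733 CPM with LINC01432 LNA and 643 and 691 CPM with control LNA (log2 fold change 0.06, SE 0.09). ELOVL6, an elongase of palmitate, had 15.4 and 13.8 CPM with LINC01432 LNA and 18.3 and 16.2 CPM with control LNA (-0.25, SE 0.11, edgeR adjusted p = 0.176). The desaturases of polyunsaturated fatty acids, FADS1 and FADS2, are neighbours on chromosome 11. FADS1 had 296 and 298 CPM with LINC01432 LNA and 285 and 286 CPM with control LNA (0.05, SE 0.08), and FADS2 had 695 and 817 CPM with LINC01432 LNA and 796 and 790 CPM with control LNA (-0.07, SE 0.09).

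Set side by side, the fatty acid enzymes had a median log2 fold change of -0.11 and the sterol enzymes one of -0.03, a difference of -0.08. The mean log2 CPM of the fatty acid enzymes exceeded that of the sterol enzymes by 2.31 and 2.30 in the LINC01432 LNA libraries and by 2.37 and 2.31 in the control LNA libraries, to 2 decimals, and these values overlapped. Members are not replicates, so no test of this difference was made. The summed level did differ for the fatty acid arm: its 8 enzymes held 5765 and 6011 CPM with LINC01432 LNA and 4851 and 5028 CPM with control LNA. Without FASN the sums were 2703 and 2934 CPM with LINC01432 LNA and 2922 and 2959 CPM with control LNA, and the groups overlapped. The 18 sterol enzymes held 1591 and 1782 CPM with LINC01432 LNA and 1728 and 1760 CPM with control LNA, again overlapping. The higher sum of the fatty acid arm was therefore that of FASN, which made up 53.1% and 51.2% of it with LINC01432 LNA and 39.8% and 41.1% with control LNA.

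**Figure D2:**
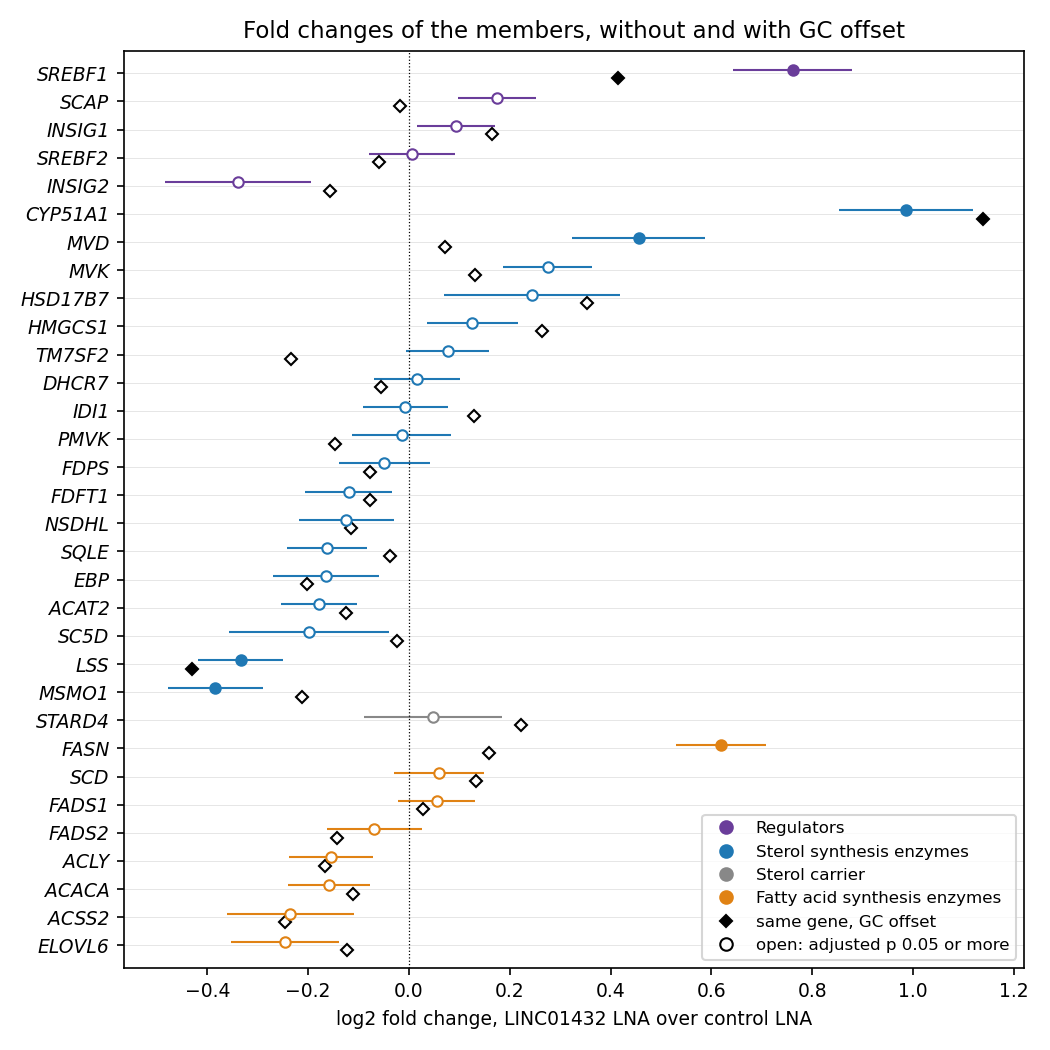
Log2 fold changes of the 32 tested members, LINC01432 LNA over control LNA, with standard errors as bars (circles, coloured by role) and after GC correction (diamonds). Filled symbols have an edgeR adjusted p under 0.05. SREBF1, CYP51A1 and LSS are filled in both forms, while FASN, MVD and MSMO1 are filled only without the correction.

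GC content moved with several of these results. The 4 members in the top bin of genes by GC were FASN, MVD, SREBF1 and TM7SF2, and 3 of them rose, where 37.2% of all genes in that bin were called higher and 0.41% lower. MSMO1 lay in the bottom bin, where 9.5% of genes were called lower and 1.76% higher. CYP51A1, at 40.9% GC, rose in a bin where 2.64% of genes did, and LSS, at 58.5% GC, fell in a bin where 1.35% of genes did. The part of GC content in the rises of FASN and MVD was not tested beyond the correction, under which their log2 fold changes were 0.16 and 0.07 instead of 0.62 and 0.46.

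**Figure D3:**
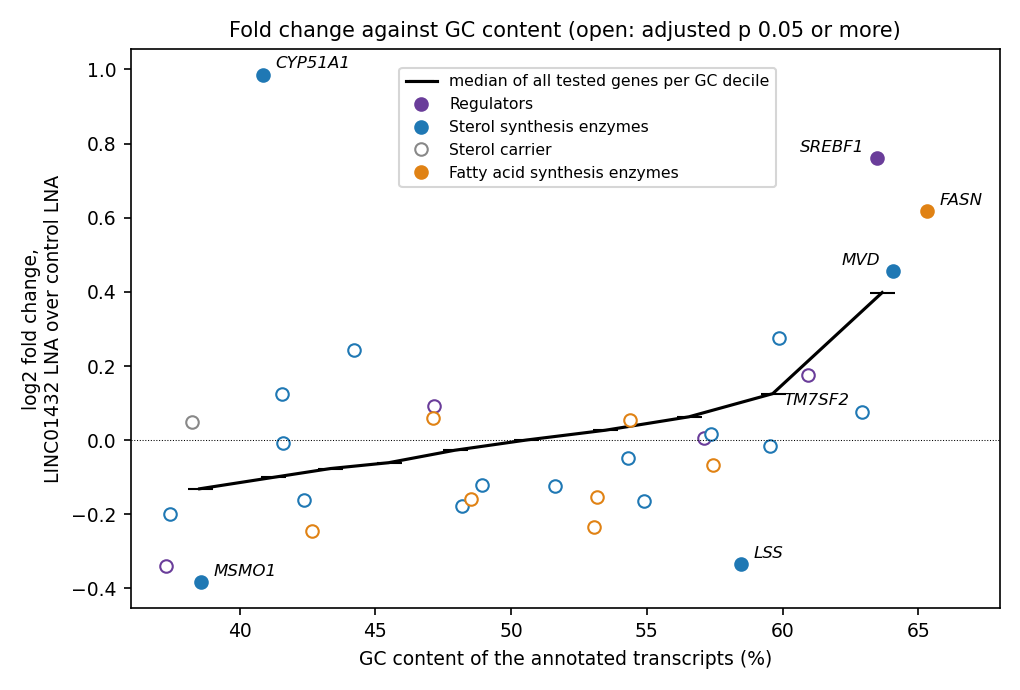
Log2 fold change, LINC01432 LNA over control LNA, against the GC content of each member's annotated transcripts. The black line joins the medians of all tested genes with a known GC content in 10 bins by GC. These climb to 0.40 at the right, where FASN, SREBF1 and MVD lie. CYP51A1 and LSS lie far from the line.

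Promoters are shown for the called members, and binding of SREBPs or other factors to them was not measured. FASN had no entry in the RefSeq table used (GRCh38.p14), which held 29 of the 33 members. Each window runs from 250 bases before to 50 after a gene start, 5′ to 3′ on the gene's strand. Capitals mark CCAAT boxes (letters CCAAT, or ATTGG where the box is on the other strand), which bind NF-Y, a partner of SREBPs, and the E-box CACGTG, present in the LSS window.
SREBF1 (chr17:17836937-17837236, minus strand): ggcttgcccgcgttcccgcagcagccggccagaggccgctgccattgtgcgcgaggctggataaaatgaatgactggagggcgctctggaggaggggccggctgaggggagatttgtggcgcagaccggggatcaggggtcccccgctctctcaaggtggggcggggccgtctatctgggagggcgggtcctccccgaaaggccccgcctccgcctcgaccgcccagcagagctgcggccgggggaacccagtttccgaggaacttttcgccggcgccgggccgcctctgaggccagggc
MVD (chr16:88663042-88663341, minus strand): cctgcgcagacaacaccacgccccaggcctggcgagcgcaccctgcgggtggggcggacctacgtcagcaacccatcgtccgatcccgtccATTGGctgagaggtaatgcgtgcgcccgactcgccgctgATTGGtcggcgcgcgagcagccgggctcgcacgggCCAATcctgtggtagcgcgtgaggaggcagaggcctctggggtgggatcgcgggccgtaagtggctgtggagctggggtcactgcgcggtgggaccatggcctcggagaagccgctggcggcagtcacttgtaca
LSS (chr21:46228725-46229024, minus strand): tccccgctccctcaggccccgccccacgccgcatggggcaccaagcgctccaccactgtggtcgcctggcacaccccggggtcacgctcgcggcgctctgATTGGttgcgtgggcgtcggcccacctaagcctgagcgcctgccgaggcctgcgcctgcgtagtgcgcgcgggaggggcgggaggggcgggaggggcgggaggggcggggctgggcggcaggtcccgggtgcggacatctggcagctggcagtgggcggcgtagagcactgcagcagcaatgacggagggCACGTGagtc
CYP51A1 (chr7:92134428-92134727, minus strand): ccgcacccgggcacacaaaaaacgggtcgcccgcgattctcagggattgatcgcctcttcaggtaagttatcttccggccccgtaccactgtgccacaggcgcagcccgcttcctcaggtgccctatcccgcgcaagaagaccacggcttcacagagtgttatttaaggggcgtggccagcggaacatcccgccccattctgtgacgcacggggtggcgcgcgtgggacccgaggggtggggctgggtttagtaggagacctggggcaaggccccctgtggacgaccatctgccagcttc
MSMO1 (chr4:165327419-165327718, plus strand): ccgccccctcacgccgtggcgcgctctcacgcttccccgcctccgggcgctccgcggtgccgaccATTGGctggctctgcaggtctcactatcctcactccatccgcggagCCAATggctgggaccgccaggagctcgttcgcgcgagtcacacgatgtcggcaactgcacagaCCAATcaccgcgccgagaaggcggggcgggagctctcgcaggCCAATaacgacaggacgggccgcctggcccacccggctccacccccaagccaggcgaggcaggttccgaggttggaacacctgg
The window of MSMO1 held 4 CCAAT boxes, that of MVD 3 and that of LSS 1, while those of SREBF1 and CYP51A1 held 0. A box was thus present for LSS and MSMO1, which fell, and for MVD, which rose. It was absent for SREBF1 and CYP51A1, which also rose. A relation of the box to direction was not tested. Among members with a window, a CCAAT box stood in 21 of 29 (72.4%), in 13 of 15 sterol enzymes and 5 of 7 fatty acid enzymes, against 39.7% of the 27305 genes in the table. A gene was counted when any of its windows held the letters on either strand. CACGTG was found in 4 of 29 members (INSIG1, LSS, SC5D and SCAP), or 13.8%, against 8.77% of genes, and the sterol regulatory element TCACNCCAC in 1 of 29 (SREBF2), or 3.45%, against 1.39%. TCACNCCAC stood in 0 of 15 sterol enzymes and 0 of 7 fatty acid enzymes. Only these exact letters in these windows were searched, so a missing match does not show a missing site. The matches describe the letters only.

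The remaining genes of cholesterol and isoprenoid synthesis gave 1 higher and 1 lower of 14 tested, where 7.5% of all genes were higher and 4.37% lower, around a median of -0.10 (log2 fold change). POR, the reductase that supplies electrons to CYP51A1 and squalene epoxidase, rose to 134 and 155 CPM with LINC01432 LNA, against 100 and 106 CPM with control LNA (log2 fold change 0.49, edgeR adjusted p = 0.00462; 0.34 after GC correction, still called). It was not called when either control LNA library was left out, with log2 fold changes of 0.44 and 0.52. PDSS2, of ubiquinone synthesis, fell by 0.37 on the log2 scale (edgeR adjusted p = 0.0425), a call that GC correction removed (-0.26) and that held in 7 of 14 alternatives. Of 12 genes of SREBP processing and sterol-regulated protein turnover, 0 rose and 2 fell (MARCHF6 and MBTPS2), beside the same shares of all genes. After GC correction 1 rose and 1 fell, where 5.35% of all genes rose and 4.33% fell. MARCHF6, the ubiquitin ligase of squalene epoxidase, had 169 and 167 CPM with LINC01432 LNA and 219 and 216 CPM with control LNA. Its log2 fold change was -0.37 (edgeR adjusted p = 0.00897), and -0.25 and called after GC correction. MBTPS2, the protease of the second SREBP cleavage, had -0.31 (edgeR adjusted p = 0.0499), and -0.15 and not called after GC correction. MBTPS2 was called in 4 of 14 alternatives, and MARCHF6 in 12, the exceptions being those without a control LNA library (-0.38 and -0.39).

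Among genes of cholesterol export and LXR, ABCA1 and ABCG1 rose. Of 13 tested genes for uptake, export, storage and LXR, 5 rose, 0 fell and 8 did not pass, where 7.5% of all genes rose. After GC correction 3 rose and 0 fell, where 5.35% of all genes rose and 4.33% fell. ABCA1, the cholesterol exporter, had 4.20 and 5.43 CPM with LINC01432 LNA and 1.61 and 1.26 CPM with control LNA (log2 fold change 1.73, SE 0.23, edgeR adjusted p = 0.000631; 1.82 after GC correction). ABCG1, its partner in export, had 42.2 and 53.2 CPM with LINC01432 LNA and 28.0 and 31.9 CPM with control LNA (0.68, SE 0.11, edgeR adjusted p = 0.00303; 0.65 after GC correction). Both genes stayed called in all 14 alternatives.

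MYLIP, a ubiquitin ligase, had 48.8 and 47.3 CPM with LINC01432 LNA and 34.9 and 35.3 CPM with control LNA (log2 fold change 0.45, SE 0.08, edgeR adjusted p = 0.004; 0.50 after GC correction). It was not called when either control LNA library was left out, with log2 fold changes of 0.43 and 0.45. NR1H2, which encodes LXR beta, rose by 0.40 (edgeR adjusted p = 0.0143), but by 0.11 after GC correction, where it was not called (edgeR adjusted p = 0.334), nor was it when either control LNA library was left out (0.32 and 0.45). NR1H3, which encodes LXR alpha and was named after its values were seen, did not pass (0.37, edgeR adjusted p = 0.165).

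**Figure D4:**
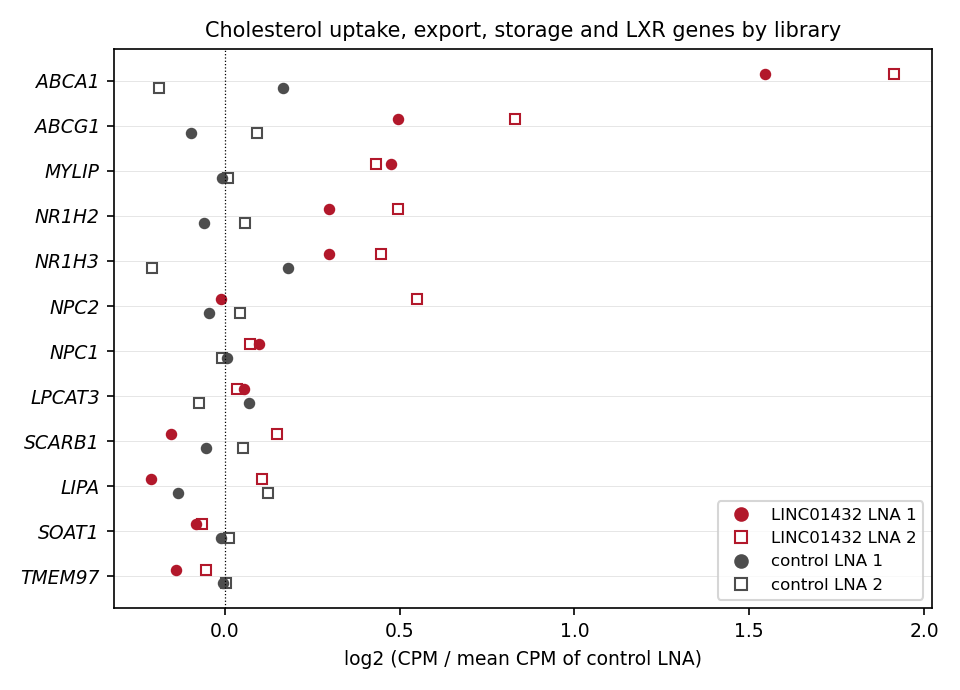
Level of genes of cholesterol uptake, export, storage and LXR in each library, as log2 of CPM over the mean CPM of the control LNA libraries; red marks are LINC01432 LNA libraries and grey marks control LNA libraries. Both LINC01432 LNA libraries lie furthest to the right for ABCA1, followed by ABCG1.

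Among 6 tested oxysterol genes, 2 fell and 0 rose, where 4.37% of all genes fell and 7.5% rose, around a median of -0.25 (log2 fold change). OSBPL3, a lipid transfer protein, had 22.7 and 20.9 CPM with LINC01432 LNA and 33.04 and 35.4 CPM with control LNA (-0.65, SE 0.09, edgeR adjusted p = 0.000988; -0.55 after GC correction). OSBPL8, which exchanges lipids between the endoplasmic reticulum and the plasma membrane, had 35.8 and 33.1 CPM with LINC01432 LNA and 51.8 and 51.9 CPM with control LNA (-0.59, SE 0.08, edgeR adjusted p = 0.00106; -0.42 after GC correction). Both stayed called in all 14 alternatives.

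Of 20 further fatty acid genes tested, 1 rose and 2 fell, and of 11 glycerolipid genes 2 rose and 0 fell, with median log2 fold changes of -0.07 and 0.17. Of all genes, 7.5% rose and 4.37% fell, so counts this small are not read as a result about either list. GC correction both removed and added calls. With it, 1 fatty acid gene rose and 1 fell, and 2 glycerolipid genes rose and 1 fell, where 5.35% of all genes rose and 4.33% fell. SLC25A1, the citrate carrier that feeds ACLY, rose by 0.46 (edgeR adjusted p = 0.0164), but its GC-corrected value was -0.07 and not called. ME1, the malic enzyme that supplies NADPH, fell by 0.40 on the log2 scale (edgeR adjusted p = 0.0148) and HACD2, a dehydratase of elongation, by 0.31 (edgeR adjusted p = 0.0265); GC correction removed both calls (-0.23 and -0.18). When control LNA library 1 or 2 was left out, SLC25A1 (0.47 and 0.43), ME1 (-0.36 and -0.46) and HACD2 (-0.30 and -0.35) were not called, at log2 fold changes close to those with all libraries. DGAT2, which completes triglycerides, had 11.5 and 11.9 CPM with LINC01432 LNA and 7.49 and 6.97 CPM with control LNA (0.70, SE 0.12, edgeR adjusted p = 0.00300; 0.66 after GC correction) and stayed called in all 14 alternatives. AGPAT2, an acyltransferase, rose by 0.43 (edgeR adjusted p = 0.00877) but was at -0.06 and not called after GC correction, and was not called when either control LNA library was left out (0.36 and 0.48).

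Further genes named from these lists did not pass. The cis-prenyltransferase subunits DHDDS and NUS1 had log2 fold changes of -0.22 and -0.24 (edgeR adjusted p = 0.0929 and 0.154). SPRING1, a factor of SREBP processing, had -0.18 (edgeR adjusted p = 0.217). HSD3B7, of bile acid synthesis, had -0.36 (edgeR adjusted p = 0.153) and -0.62 after GC correction, where it was called lower, and the oxysterol-binding protein gene OSBP had -0.13 (edgeR adjusted p = 0.324). HSD17B12, a reductase of elongation, had -0.29 (edgeR adjusted p = 0.0853). GPAT3, an acyltransferase, had 0.24 (edgeR adjusted p = 0.131) and 0.34 after GC correction, where it was called higher, and LPIN1, a phosphatidate phosphatase, had 0.17 (edgeR adjusted p = 0.186).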

How the data were processed

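Total RNA of 4 libraries was sequenced. The table the authors deposited holds raw counts of reads per gene. The submitters' processing notes name GRCh38, bcl2fastq, STAR 2.7.11b, Salmon 1.10.0, Subread and featureCounts 2.0.8, without roles. The annotation release and strand setting are not stated there, so overlapping and antisense genes may be pooled or split. The labels disagree on RNA selection, naming poly(A) selection in the design text and ribosomal RNA removal in the protocols. The ERCC (92) and transgene (5) rows were excluded; their share was no more than 4.20e-05% in any library.

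Tests used edgeR 4.0.16 in R 4.3.3 (quasi-likelihood F test, TMM, filterByExpr with a minimum count of 10 and a minimum total of 15, group as the only term), with Benjamini-Hochberg adjustment over all 18680 genes and calls at 0.05. Standard errors come from the F statistic. A permutation test of 2 against 2 cannot go below p = 0.333, so calls depend on a spread shared over genes by edgeR (common coefficient of variation 7.13%). The GC correction fits log2 CPM against transcript GC by lowess in each library (span 0.3) and enters the centred fit as an offset. Symbols matched 61481 gene IDs, and positions, exon lengths, overlaps and GC came from GENCODE 29 (57356 IDs), promoters from RefSeq. Fits were tested on simulated counts drawn with the same spread for all genes and libraries. The unequal spread of the library pairs here was not covered by that. DESeq2 1.42.0, limma-voom (limma 3.58.1), other scalings, filters, left-out libraries, GC corrections and a replicate block were alternatives. Means over arms used log2 of CPM plus 0.5. The genes named were all members, LINC01432 and up to 4 genes with the smallest p from each further list. Some genes that this rule or the further lists hold are not reported here. Members and lists were chosen with earlier results of these data known. Figures were drawn with matplotlib 3.10.9.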

Additional observations from a re-analysis of the deposited data

How the results depend on the processing

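LINC01432 stayed lower and called in all 14 alternatives (log2 fold change -1.13 to -0.92). Across the fits without 1 library, 766 to 5228 genes were called instead of 2218, with 2 to 7 members higher and 0 to 11 lower; median log2 fold changes ran from -0.11 to 0.014 for sterol enzymes, from -0.15 to -0.012 for fatty acid enzymes, and from -0.10 to -0.026 for the difference. The fits without 1 library have fewer samples and take their spread from the complete pair. Library totals as scaling gave 1 member lower, where 3.47% of all genes were lower. GC correction gave 2 members higher and 1 lower, where 5.35% of all genes were higher and 4.33% lower. An adjusted p under 0.01 gave 1000 genes and 0 members lower, where 1.45% of all genes were lower. The replicate block gave 3862 genes, and with GC correction 3672 genes and 5 members lower, where 8.85% of all genes were lower. The libraries share a number only: deviations of same-numbered libraries correlated at 0.16 across 18680 genes, with 2 pairs and no label that ties them. Signs of called genes turned under GC correction for SLC25A1 (-0.065, and -0.067 with the block) and AGPAT2 (-0.062 and -0.063), and TM7SF2 was called lower (-0.23) with GC correction and the block; beyond its construction, the cause was not tested. Of 32 tested members, 9 kept their call in all 14 alternatives and 11, none of them called, changed sign in at least 1. Beside the counting depth, 2 libraries a group limit what could be called: members that did not pass are not shown to be unchanged.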
